A study of Mus musculus with 9 samples.

Results

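Chosen by name from the gene table, the 32 genes described here belong to sterol and fatty acid synthesis, sterol handling or SREBP transcription factor control. They were measured by RNA sequencing in the mouse microglial line BV2, which is immortalized and is labelled wildtype. The table lists 55906 genes, of which 11260, including all 32 members, reached 1 TPM in 3 or more of the 9 libraries and were tested. TPM expresses reads per transcript length on one fixed total per library, so levels can be compared between genes. The groups were LPS+Pilo (cells given lipopolysaccharide with a treatment the labels name Pilo), LPS (lipopolysaccharide alone) and Control (no treatment), with 3 libraries each. Lipopolysaccharide, a component of the bacterial outer membrane, activates microglia through Toll-like receptor signalling. The sources used here state no dose or duration and do not spell out Pilo. All groups share the 1 cell line. The labels name biological replicates but not separate cultures, so p-values measure the spread between these libraries. The design text asks how Pilo modulates the inflammatory response, and the comparisons were LPS against Control, LPS+Pilo against LPS, and LPS+Pilo against Control.

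Cholesterol is built from acetyl-CoA through mevalonate, isoprenoid units, squalene and a series of sterol intermediates. The SREBP proteins are made as precursors in the endoplasmic reticulum membrane. When sterols are scarce, the escort protein SCAP carries them to the Golgi, where they are cut and released to the nucleus. When sterols are plentiful, INSIG proteins hold SCAP back. SREBP2, encoded by Srebf2, mainly drives sterol genes, and SREBP1, encoded by Srebf1, mainly drives fatty acid genes. Macrophages and microglia are known to adjust both branches when Toll-like receptors are engaged.

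The following stretches are the 250 bases upstream of the annotated start of 5 members. Mvd, Ebp, Insig1 and Mylip are the members that passed a test in at least 1 comparison and have a single entry in the RefSeq promoter table (GRCm38.p6). Hmgcs1 is shown because it alone matched the sterol regulatory element among the 27 members with an entry. Capitals mark matches on either strand to the sterol regulatory element (TCACNCCAC), the NF-Y box (CCAAT, or ATTGG on the other strand), the Sp1 box (GGGCGG, or CCGCCC on the other strand) and the E-box (CACGTG). No 2 of the marked matches overlap.
Mvd promoter, chr8:122443423-122443672, minus strand: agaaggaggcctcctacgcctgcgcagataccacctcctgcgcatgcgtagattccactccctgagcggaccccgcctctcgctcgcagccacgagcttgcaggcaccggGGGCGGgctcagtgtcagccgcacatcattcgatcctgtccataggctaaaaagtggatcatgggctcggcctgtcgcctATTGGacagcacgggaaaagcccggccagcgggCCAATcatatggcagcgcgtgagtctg
Ebp promoter, chrX:8193513-8193762, minus strand: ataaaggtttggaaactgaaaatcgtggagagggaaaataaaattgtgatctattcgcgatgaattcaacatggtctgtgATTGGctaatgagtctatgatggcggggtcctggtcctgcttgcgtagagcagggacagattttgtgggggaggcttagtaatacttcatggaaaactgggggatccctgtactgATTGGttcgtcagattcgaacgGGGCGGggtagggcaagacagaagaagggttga
Insig1 promoter, chr5:28071162-28071411, plus strand: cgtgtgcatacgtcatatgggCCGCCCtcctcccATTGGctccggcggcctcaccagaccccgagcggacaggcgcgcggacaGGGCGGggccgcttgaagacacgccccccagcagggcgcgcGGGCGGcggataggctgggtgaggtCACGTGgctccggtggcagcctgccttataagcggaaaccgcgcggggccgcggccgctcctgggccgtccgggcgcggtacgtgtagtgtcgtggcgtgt
Mylip promoter, chr13:45389492-45389741, plus strand: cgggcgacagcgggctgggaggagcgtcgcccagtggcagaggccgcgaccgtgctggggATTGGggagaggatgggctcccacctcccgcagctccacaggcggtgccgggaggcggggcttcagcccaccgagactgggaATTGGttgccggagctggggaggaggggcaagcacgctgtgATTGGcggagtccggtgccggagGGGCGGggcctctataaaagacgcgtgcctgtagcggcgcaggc
Hmgcs1 promoter, chr13:119690101-119690350, plus strand: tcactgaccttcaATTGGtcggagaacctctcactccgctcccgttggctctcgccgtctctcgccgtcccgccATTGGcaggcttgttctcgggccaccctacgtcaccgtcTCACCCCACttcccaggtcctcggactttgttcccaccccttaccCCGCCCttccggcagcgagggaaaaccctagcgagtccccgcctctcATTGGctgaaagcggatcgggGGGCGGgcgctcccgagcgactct

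The letters of the NF-Y box, bound by a factor that is known to act together with SREBPs, were present in 24 of the 35 promoter entries of the 27 members, against 37.4% of all 32851 entries of the same length (300 bases, of which 50 lie after the start). Dhcr7, Insig2 and Srebf1 have 3 entries each and Pmvk and Scap 2 each. The Sp1 box was present in 26 of the 35 member entries and 35.7% of all entries, and the E-box in 6 of 35 and 7.15%. The sterol regulatory element was present in 1 of 35 member entries and in 408 of the 32851. Only the exact letters given above were searched, so variant forms of the element were not counted. Fdps, Fdft1, Sqle, Scd2 and Stard4 had no entry. Each of the 4 called members shown has an NF-Y box and an Sp1 box in its printed stretch, and Insig1 has the E-box as well. These are matches of letters within this window, not measured binding.

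The libraries showed the labelled cell type, and both treated groups showed a response to LPS. Lcn2, an antimicrobial iron-scavenging gene, had 226 to 242 TPM in LPS+Pilo and 154 to 256 TPM in LPS, against 0.15 to 0.22 TPM in Control. Tnf had 154 to 184 TPM in LPS+Pilo and 182 to 202 TPM in LPS, against 11.1 to 13.1 TPM in Control. Lcn2 and Tnf served as a check of LPS only, and no gene was used to check that Pilo was given. Of 10 microglia and macrophage markers 9 had at least 1 TPM in every library, the exception being Aif1 (0.07 to 1.36 TPM). Their summed level was 3008 to 3051 TPM in LPS+Pilo, 3258 to 3347 TPM in LPS and 3681 to 3857 TPM in Control. Of 25 markers of neurons, astrocytes, oligodendrocytes, endothelium and fibroblasts, 23 stayed under 0.5 TPM in every library and 9 were listed at 0 throughout (Snap25, Syt1, Rbfox3, Aqp4, Aldh1l1, Gja1, Mog, Cldn5 and Dcn). The summed level of these 25 was 28.8 to 32.7 TPM in LPS+Pilo, 27.3 to 29.2 TPM in LPS and 34.3 to 37.8 TPM in Control, nearly all of it from Cnp and Vwf. Both marker sums were lowest in a treated group, and their part in the results was not tested. In bulk RNA, fewer cells of a type and less RNA per cell cannot be told apart.

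The members differed widely in level and little between groups. Fdps, which encodes the synthase that makes farnesyl pyrophosphate, had the highest level of the 32, with 922 to 1116 TPM over the 9 libraries. Scd2, a stearoyl-CoA desaturase gene that introduces the double bond of oleate, followed with 202 to 405 TPM, and the mevalonate decarboxylase gene Mvd with 121 to 171 TPM. Fasn, the fatty acid synthase gene, had 95.9 to 153 TPM and Srebf2 had 96.5 to 122 TPM. At the low end were the 3-ketosteroid reductase gene Hsd17b7 (1.77 to 3.47 TPM) and Mylip (0.99 to 2.26 TPM). Mylip encodes a ubiquitin ligase, induced by the oxysterol receptor LXR, that degrades lipoprotein receptors. The ratio of the highest to the lowest library ran from 1.21 for Fdps to 2.47 for Insig2. Together the 32 genes summed to 2215.8, 2179.8 and 2225.5 TPM in LPS+Pilo, 2368.5, 2357.1 and 2093.0 TPM in LPS and 2651.3, 2368.2 and 2580.0 TPM in Control. The LPS+Pilo sums lay below all Control sums and between the lowest and the other LPS sums. Fdps supplied the largest part of each sum.

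**Figure D1:**
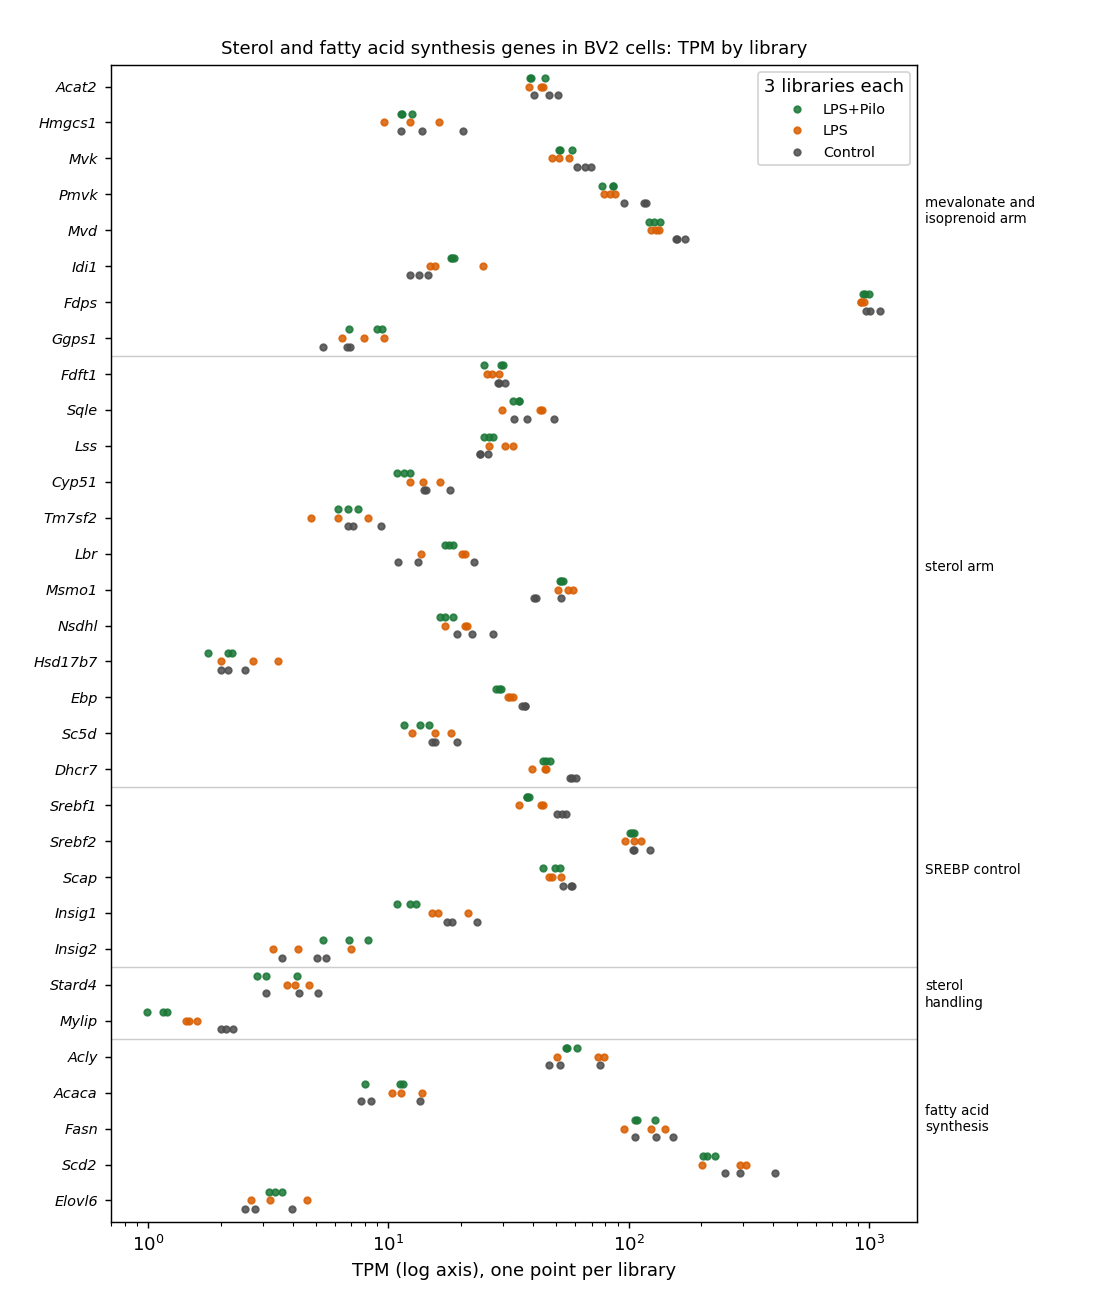
TPM of the 32 members (rows, by role) on a log axis, one point per library, with LPS+Pilo, LPS and Control drawn from top to bottom within each row. Levels span from 0.99 TPM for Mylip to 1116 TPM for Fdps, while the groups of most genes overlap.

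LPS lowered 3 of the 32 members, Pmvk, Mvd and Dhcr7, and raised 0. In the fit over all 11260 genes (limma on log2(TPM + 1), Benjamini-Hochberg adjusted p under 0.05), 7.76% of genes passed in this comparison, 3.64% lower (410 genes) and 4.12% higher (464 genes). Quantile normalization turned the balance over all genes to 902 lower and 614 higher. The 3 lower members are 9.38% of the 32. At an unadjusted p under 0.05 there were 7 lower and 3 higher members, where 22.7% of all genes passed, 10.4% lower and 12.3% higher. The log2 fold change was below 0 for 21 of the 32 members and 41.1% of all genes, with a median of -0.12 over the members and 0.07 over all genes tested. The median over all genes was -0.01 with quantile normalization and 0.01 with median-of-ratios scaling. LPS and Control libraries did not overlap for 11 members, where 24.2% of all genes did not. LPS libraries lay below all Control libraries for 9 of the 32 members, where 13.1% of all genes did so, and above them for 2 of 32, where 11.2% did so.

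Of the 3 lower genes 2 encode consecutive enzymes of the mevalonate route. Pmvk, the phosphomevalonate kinase gene, had 78.7, 87.6 and 83.9 TPM in LPS, against 95.4, 115.7 and 117.7 TPM in Control. All 3 LPS libraries were below all 3 Control libraries, a log2 fold change of -0.39 ± 0.10 (SE; limma, adjusted p = 0.0471). Mvd, which decarboxylates mevalonate pyrophosphate, had 133.9, 123.7 and 129.3 TPM in LPS, against 157.1, 159.5 and 170.7 TPM in Control. The groups did not overlap, and Mvd fell by 0.33 ± 0.08 on the log2 scale (limma adjusted p = 0.0300). Mvk, the mevalonate kinase gene of the preceding step, had 51.7 ± 4.25 TPM in LPS and 65.3 ± 4.43 TPM in Control (SD, n = 3 each), without overlap but short of the threshold (-0.33, limma adjusted p = 0.0710).

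The other genes of the mevalonate and isoprenoid arm did not pass. Idi1, which isomerizes the isoprenoid unit, had 15.7, 24.7 and 14.8 TPM in LPS, against 14.6, 12.3 and 13.4 TPM in Control. Its LPS values were all above its Control values, though LPS replicates 1 and 3 lay close to them (0.39 ± 0.18, limma adjusted p = 0.218). Hmgcs1, the synthase gene at the head of the mevalonate pathway and the carrier of the sterol regulatory element printed above, had 12.3, 16.3 and 9.57 TPM in LPS, against 20.5, 11.3 and 13.8 TPM in Control, with overlapping groups (-0.23 ± 0.23, limma adjusted p = 0.582). Acat2, which encodes the thiolase that joins acetyl-CoA units, had a log2 fold change of -0.12, Fdps of -0.15 and Ggps1, the geranylgeranyl pyrophosphate synthase gene, of 0.28 (limma adjusted p from 0.282 to 0.546).

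In the sterol arm 1 of 12 members was lower and 0 higher. Dhcr7, which encodes the reductase of the last step of cholesterol synthesis, had 45.1, 44.8 and 39.5 TPM in LPS, against 60.1, 57.1 and 58.3 TPM in Control, without overlap (-0.43 ± 0.09, limma adjusted p = 0.0143). Ebp, the sterol isomerase gene, had 31.4, 32.9 and 31.9 TPM in LPS, against 37.0, 37.1 and 36.1 TPM in Control. Its groups did not overlap, and its adjusted p missed the threshold (-0.19 ± 0.08, limma adjusted p = 0.195). Lss, the lanosterol synthase gene (0.27), and Msmo1, a sterol methyl oxidase gene (0.31), had positive values that did not pass (limma adjusted p = 0.176 and 0.134). The remaining 8 genes of the arm, from squalene synthase (Fdft1) and squalene epoxidase (Sqle) to lathosterol oxidase (Sc5d), had log2 fold changes of -0.26 to 0.25, and their groups overlapped. Lbr and Tm7sf2, which both encode sterol C14 reductases, had opposite signs (0.25 and -0.26, limma adjusted p = 0.574 and 0.453).

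None of the 5 SREBP control genes passed with LPS. Srebf1 had 42.9, 44.2 and 34.9 TPM in LPS, against 54.9, 50.1 and 52.6 TPM in Control, without overlap (-0.37 ± 0.10, limma adjusted p = 0.0615). It passed with quantile normalization (adjusted p = 0.00570) and with median-of-ratios scaling (adjusted p = 0.00753), which both rescale the libraries. Srebf2 had 112.0, 104.8 and 96.5 TPM in LPS, against 122.5, 103.8 and 104.9 TPM in Control, with overlap (-0.08 ± 0.09, limma adjusted p = 0.647). Scap had 52.4, 48.1 and 46.6 TPM in LPS, against 57.3, 53.4 and 58.1 TPM in Control, where the groups did not overlap (-0.20 ± 0.09, limma adjusted p = 0.249). Insig1 and Insig2, the retention genes, had values of -0.17 and 0.00, with overlapping groups. The 2 genes of sterol handling, Mylip (-0.32, limma adjusted p = 0.179, without overlap) and the sterol transfer gene Stard4 (0.02), and the 5 genes of fatty acid synthesis (-0.24 to 0.26) did not pass either. Among the latter, Acaca had the largest absolute change (0.26 ± 0.22, limma adjusted p = 0.513). Its level was 11.29, 13.77 and 10.35 TPM in LPS, against 13.58, 7.69 and 8.48 TPM in Control, with overlap.

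Each of the 3 calls with LPS was lost in at least 1 fit that left out a single library. Over these fits the log2 fold change was -0.48 to -0.33 for Pmvk, -0.36 to -0.29 for Mvd and -0.47 to -0.37 for Dhcr7. The calls over all genes, 874 in the main fit, ranged from 414 to 1020. Pmvk stayed under the threshold without Control replicate 1 (limma adjusted p = 0.0150) and missed it without any one of the other 8 libraries (0.0631 to 0.19), without the filter (0.0725), with a pseudocount of 0.1 (0.0507), with median-of-ratios scaling (0.0863) and with the LPS and Control libraries alone (0.110). Mvd missed it without LPS+Pilo replicate 2 (0.0501), any one LPS replicate (0.0531 to 0.128), Control replicate 2 (0.0777) or Control replicate 3 (0.141), with median-of-ratios scaling (0.0723) and with the LPS and Control libraries alone (0.0709), and Dhcr7 without Control replicate 3 (0.0645) and with the LPS and Control libraries alone (0.0533).

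Adding Pilo to LPS gave 0 called members of 32 in either direction. In this comparison 0.0444% of all genes passed (limma, adjusted p under 0.05), 0.0355% lower and 0.00888% higher. An unadjusted p under 0.05 was found for 1 lower and 0 higher members, where 6.76% of all genes passed that level, 3.72% lower and 3.04% higher. The log2 fold change was below 0 for 24 of the 32 members and 60.3% of all genes, with a median of -0.07 over the members and -0.05 over all genes tested. LPS+Pilo and LPS libraries did not overlap for 3 members, Insig1, Ebp and Mylip, where 12.2% of all genes did not. All 3 lay below, where 6.63% of all genes did so, and 0 members lay above, where 5.58% did so. The comparison uses the same LPS libraries as LPS against Control, so their values are given side by side and not related to each other.

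Insig1, itself a well-known SREBP target, had the lowest log2 fold change of the members in this comparison. Its level was 13.0, 10.9 and 12.2 TPM in LPS+Pilo, against 16.1, 21.4 and 15.2 TPM in LPS. Each LPS+Pilo value was below each LPS value, and the log2 fold change was -0.50 ± 0.16 (95% interval -0.86 to -0.14; unadjusted p = 0.0113 and adjusted p = 0.533 in limma). Insig2, whose product has the same retention role, had 8.19, 6.86 and 5.33 TPM in LPS+Pilo, against 4.22, 6.98 and 3.32 TPM in LPS. These groups overlapped, with the highest log2 fold change of the members (0.45 ± 0.25, 95% interval -0.11 to 1.00, limma adjusted p = 0.793).

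Ebp had 28.8, 29.4 and 28.0 TPM in LPS+Pilo and 31.4, 32.9 and 31.9 TPM in LPS (-0.15 ± 0.08, limma adjusted p = 0.771). Mylip had 1.15, 0.99 and 1.2 TPM in LPS+Pilo and 1.48, 1.59 and 1.43 TPM in LPS (-0.24 ± 0.13, limma adjusted p = 0.779). For both genes the groups were apart by little. Stard4 had 4.15, 2.84 and 3.09 TPM in LPS+Pilo, against 3.78, 4.67 and 4.08 TPM in LPS (-0.26 ± 0.19, limma adjusted p = 0.850). Hsd17b7 had 2.15, 2.23 and 1.77 TPM in LPS+Pilo, against 2.74, 3.47 and 2.00 TPM in LPS (-0.28 ± 0.17, limma adjusted p = 0.830). The groups of both genes overlapped. In the mevalonate arm Hmgcs1 had the largest absolute change (-0.08 ± 0.23, limma adjusted p = 0.978). Its level was 12.52, 11.25 and 11.41 TPM in LPS+Pilo, against 12.26, 16.28 and 9.57 TPM in LPS, with overlap.

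Of the genes called with LPS, Pmvk, Mvd and Dhcr7 had values near 0 when Pilo was added. The 95% interval of the log2 fold change was -0.23 to 0.22 for Pmvk, -0.19 to 0.16 for Mvd and -0.11 to 0.27 for Dhcr7. These genes were picked by their low LPS values, and the same LPS libraries are the reference here. The intervals therefore do not bound what this design could have missed. Srebf1 had 37.5, 37.7 and 38.5 TPM in LPS+Pilo, inside the LPS range of 34.9 to 44.2 TPM (-0.09 ± 0.10, limma adjusted p = 0.906). Srebf2, with 101.6, 103.0 and 105.3 TPM in LPS+Pilo, also lay inside its LPS range (-0.01 ± 0.09, limma adjusted p = 0.989), and Scap, with 44.1, 51.6 and 49.3 TPM, overlapped it (-0.02 ± 0.09, limma adjusted p = 0.982).

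All 5 fatty acid synthesis genes had negative values that did not pass. Scd2 had 228.2, 211.1 and 202.8 TPM in LPS+Pilo, against 289.5, 306.8 and 202.2 TPM in LPS (-0.29 ± 0.19, limma adjusted p = 0.840). The overlap came from LPS replicate 3, whose value was the lowest of all 9 libraries. Acaca, the acetyl-CoA carboxylase gene, had 11.1, 11.5 and 8.00 TPM in LPS+Pilo, against 11.3, 13.8 and 10.4 TPM in LPS (-0.20 ± 0.22, limma adjusted p = 0.906). Acly, the ATP citrate lyase gene that supplies cytosolic acetyl-CoA, had -0.22, Fasn -0.06 and the elongase gene Elovl6 -0.01.

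**Figure D2:**
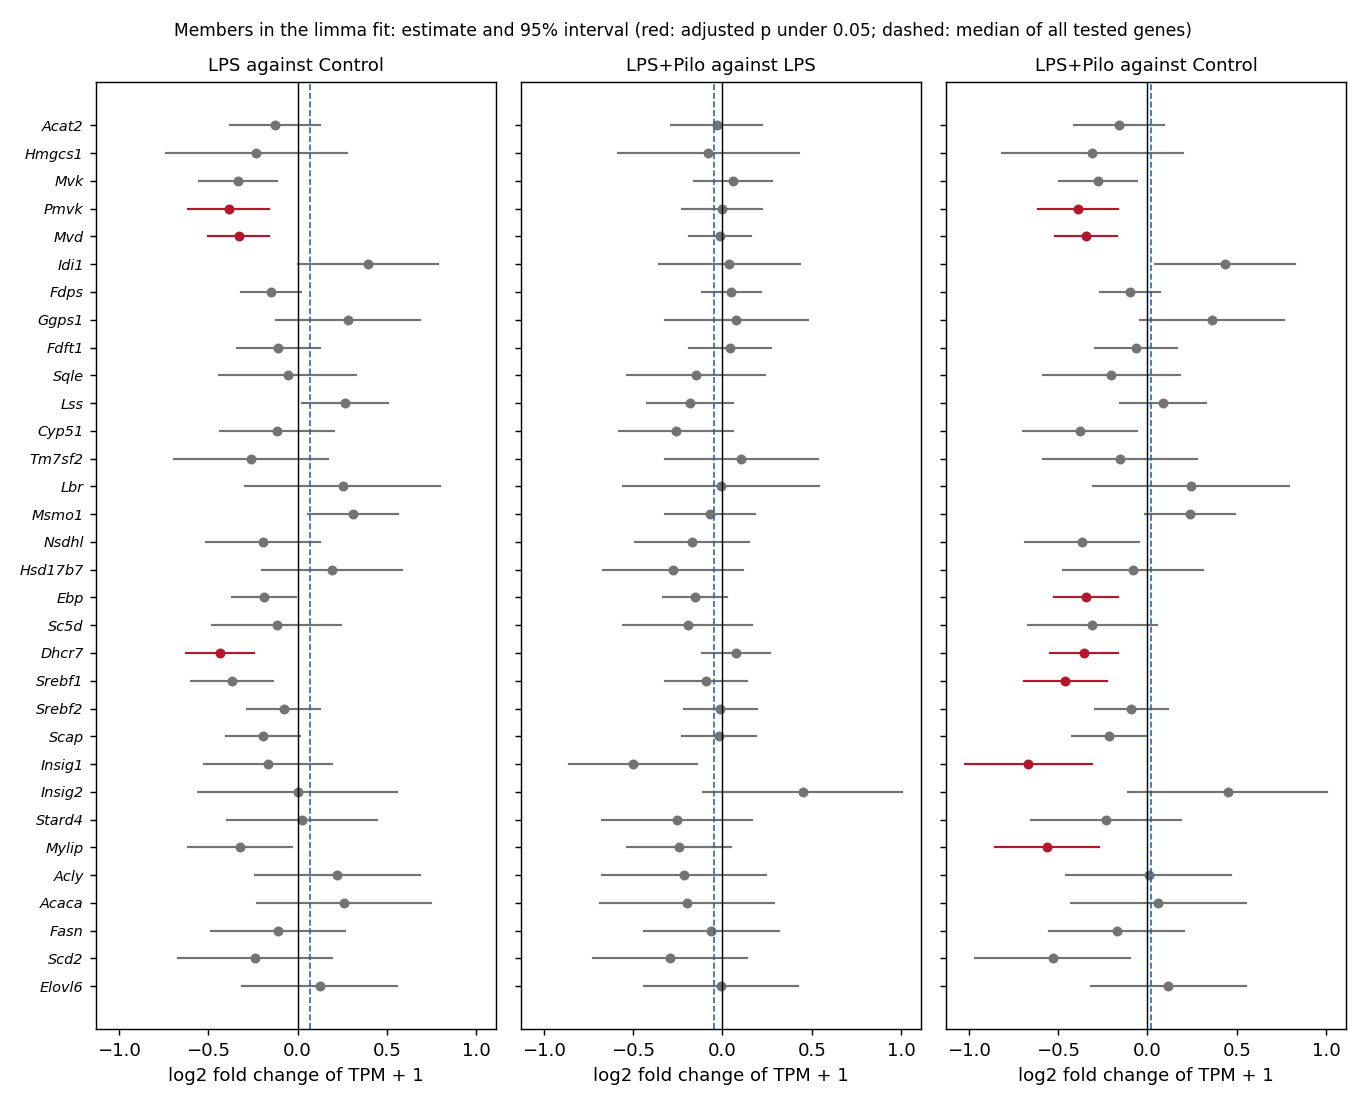
Log2 fold change of TPM + 1 for each member (rows) with its 95% interval in the 3 comparisons (panels), red where the adjusted p was under 0.05, with the median of all tested genes as a dashed line. LPS against Control has 3 red members and LPS+Pilo against Control 7, all below 0, while LPS+Pilo against LPS has 0.

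In LPS+Pilo against Control, which sets the combined treatment against untreated cells, 7 of the 32 members were lower and 0 higher. The 7 were Pmvk and Mvd of the mevalonate arm, Ebp and Dhcr7 of the sterol arm, the control genes Srebf1 and Insig1, and Mylip. They are 21.9% of the members, where 10.2% of all genes passed in this comparison, 5.3% lower and 4.85% higher (limma, adjusted p under 0.05). At an unadjusted p under 0.05 there were 12 lower members and 1 higher, where 24% of all genes passed, 12.3% lower and 11.6% higher. The log2 fold change was below 0 for 23 of the 32 members and 47.1% of all genes, with a median of -0.19 over the members and 0.02 over all genes tested. LPS+Pilo and Control libraries did not overlap for 14 members, where 30.5% of all genes did not. LPS+Pilo libraries lay below all Control libraries for 13 of the 32 members, where 15.6% of all genes did so, and above them for 1 member, Idi1, where 14.9% did so. This comparison shares its libraries with the other 2 and is not independent of them.

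Insig1 and Mylip had the largest decreases among the called members. With 13.0, 10.9 and 12.2 TPM in LPS+Pilo against 23.4, 17.6 and 18.3 TPM in Control, it fell by 0.67 ± 0.16 on the log2 scale (limma adjusted p = 0.0273). Mylip, with 1.11 ± 0.11 TPM in LPS+Pilo and 2.12 ± 0.127 TPM in Control (SD, n = 3 each), fell by 0.56 ± 0.13 (limma adjusted p = 0.0233). The added pseudocount understates the change of a gene at this low level: with 0.1 in place of 1, the log2 fold change was -0.88 for Mylip and -0.70 for Insig1, which turns their order. Srebf1 had 37.9 ± 0.490 TPM in LPS+Pilo and 52.5 ± 2.41 TPM in Control and fell by 0.46 ± 0.10 (limma adjusted p = 0.0207). The groups of all 3 genes were apart, and for Mylip the LPS libraries, at 1.43 to 1.59 TPM, lay between them.

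The called enzymes moved by similar amounts. Pmvk had 86.0, 77.7 and 86.1 TPM in LPS+Pilo and fell by 0.39 ± 0.10 relative to Control (limma adjusted p = 0.0383). Mvd had 120.9, 127.6 and 134.9 TPM in LPS+Pilo and fell by 0.34 ± 0.08 (limma adjusted p = 0.0206). Dhcr7 had 45.3, 47.1 and 44.0 TPM in LPS+Pilo and fell by 0.36 ± 0.09 (limma adjusted p = 0.0269). Ebp was stepped across the groups, with 28.7 ± 0.671 TPM in LPS+Pilo, 32.1 ± 0.753 TPM in LPS and 36.7 ± 0.548 TPM in Control (SD, n = 3 each), and fell by 0.34 ± 0.08 relative to Control (limma adjusted p = 0.0239). No library of one group of Ebp overlapped another group.

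Among members that did not pass, Cyp51, the lanosterol demethylase gene, had 12.3, 11.6 and 10.8 TPM in LPS+Pilo, against 17.98, 14.0 and 14.4 TPM in Control (-0.38 ± 0.14, limma adjusted p = 0.135). The sterol dehydrogenase gene Nsdhl had 17.4 ± 1.1 TPM in LPS+Pilo and 22.9 ± 4.00 TPM in Control (-0.37, limma adjusted p = 0.151). Scd2 had 214 ± 12.9 TPM in LPS+Pilo and 316 ± 80.0 TPM in Control (-0.53 ± 0.19, limma adjusted p = 0.122). All 3 were below every Control library, and all 3 had a Control replicate 1 above the other Control libraries. Each passed with median-of-ratios scaling (adjusted p = 0.0178 for Cyp51, 0.0158 for Nsdhl and 0.0203 for Scd2). With quantile normalization Cyp51 and Nsdhl passed and Scd2 did not (limma adjusted p = 0.0132, 0.016 and 0.0889). Mvk (-0.28), Sc5d (-0.31) and Scap (-0.22) were also below every Control library and did not pass (limma adjusted p = 0.113, 0.282 and 0.189). Idi1, at 18.7, 18.2 and 18.4 TPM in LPS+Pilo, was above all Control libraries (0.43 ± 0.18, limma adjusted p = 0.167). Insig2 had the highest log2 fold change of the members (0.45 ± 0.25, limma adjusted p = 0.313). Its level was 8.19, 6.86 and 5.33 TPM in LPS+Pilo, against 3.59, 5.02 and 5.49 TPM in Control, with overlap. Stard4 and the other 4 fatty acid genes had overlapping groups.

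The count of 7 fell to 0 without Control replicate 3, LPS+Pilo replicate 1 or LPS+Pilo replicate 2, to 1 without LPS+Pilo replicate 3 and to 2 without Control replicate 1 or Control replicate 2. The share of all genes called lower, 5.3% in the main fit, fell in these fits too. In the order given it was 2.71%, 3.28%, 2.79%, 3.21%, 3.77% and 3.84%. Whether the members lost more calls than genes at large was not tested. Fits without a single library gave adjusted p from 0.0121 to 0.151 for Pmvk, 0.0263 to 0.0957 for Mvd, 0.0273 to 0.0965 for Ebp, 0.0190 to 0.104 for Dhcr7, 0.00691 to 0.0754 for Srebf1, 0.0202 to 0.109 for Insig1 and 0.0260 to 0.0886 for Mylip, and other settings ended those of Pmvk (median-of-ratios scaling 0.112, no filter 0.0613, 2 groups alone 0.0667), Mvd (median-of-ratios scaling 0.0888), Ebp (median-of-ratios scaling 0.0514, 2 groups alone 0.0508) and Insig1 (no filter 0.0582).

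**Figure D3:**
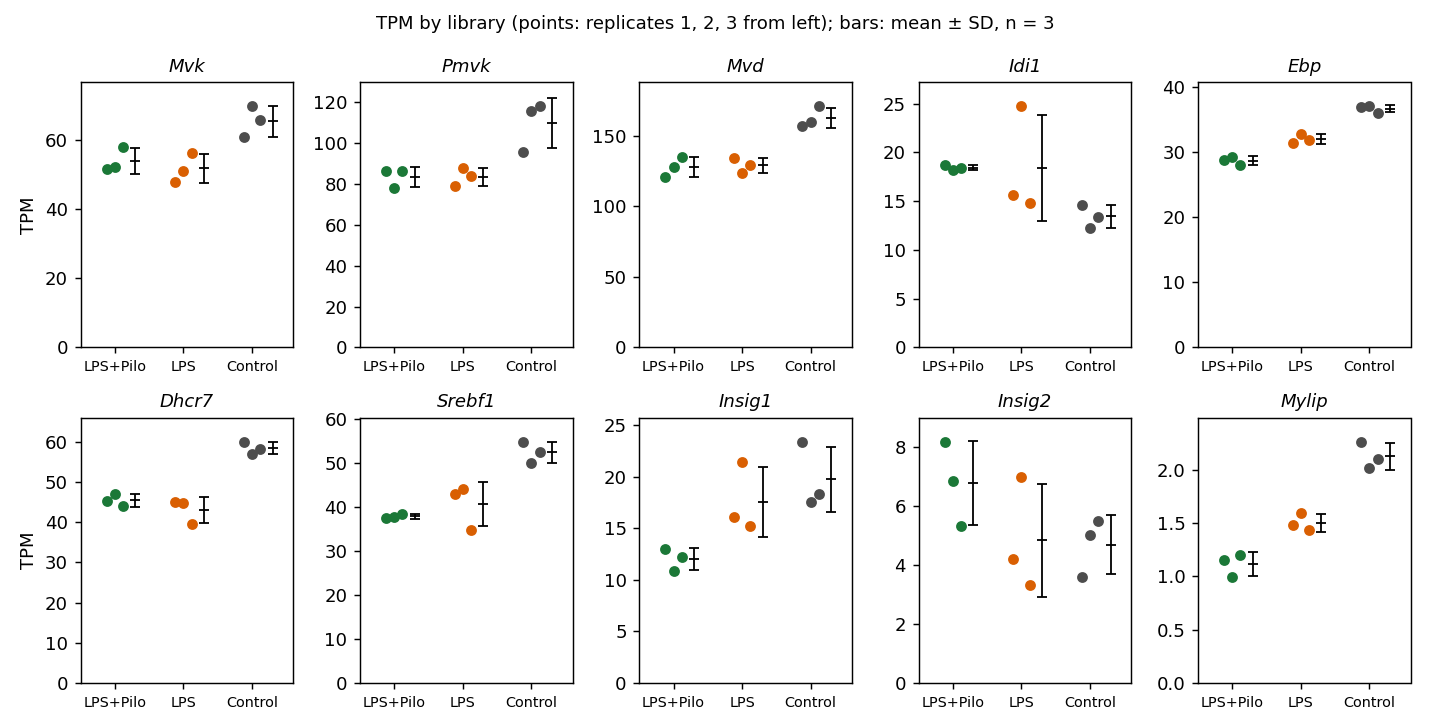
TPM by library of 10 members in LPS+Pilo, LPS and Control (left to right in each panel, axes from 0), with black bars for the mean ± SD of 3 libraries. Ebp and Mylip step across the 3 groups without overlap, Insig1 is low in LPS+Pilo, and Idi1 lies above Control in both treated groups.

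Libraries of the same group differed from each other in a way that ran along transcript length. Each library's deviation from its group mean on the log2 scale was summarized over the longest and the shortest tested genes, taken as the upper and lower quartile of the 9945 genes with a protein-coding transcript in GENCODE M21, by the longest such transcript (from 4504 bases up, and up to 1910 bases). The median deviation of the longest minus that of the shortest genes was 0.04, 0.01 and -0.06 in LPS+Pilo replicates 1 to 3. It was 0.11, 0.15 and -0.27 in the LPS replicates and 0.23, -0.19 and -0.05 in the Control replicates. Relative to their group means, long transcripts were high in Control replicate 1 and low in LPS replicate 3 and Control replicate 2.

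Many members deviated in these same libraries, but not in order of length alone. In Control replicate 1, Sqle (2758 bases) lay 0.31 above its group mean on the log2 scale and Lss (4667 bases) 0.07. Control replicate 1 held the highest Control value for 23 of the 32 members, and Control replicate 2 the lowest for 23. LPS replicate 3 held the lowest LPS value for 26 of 32. Among the LPS+Pilo libraries the highest value was in replicate 1 for 17, replicate 2 for 6 and replicate 3 for 9 members. These counts were not made over all tested genes, so they are not shown to be particular to the members. The library factors of the median-of-ratios scaling ran the same way. Among Control libraries replicate 1 had the highest (1.0979) and replicate 2 the lowest (0.9001), and LPS replicate 3 had the lowest of LPS (0.9137). Scd2 (5455 bases) had 405.2 TPM in Control replicate 1 and 251.2 TPM in Control replicate 2, and Lbr (3510 bases) had 22.6 and 10.9 TPM. The short genes Pmvk (1194 bases) and Mvk (1660 bases) ran the other way, with 95.4 and 60.7 TPM in Control replicate 1 against 115.7 and 69.6 TPM in Control replicate 2.

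The lower quartile of length held 6 members, Mvk, Pmvk, Mvd, Fdps, Tm7sf2 and Ebp. They include 2 of the 3 calls with LPS and 3 of the 7 calls of LPS+Pilo against Control, whereas the 9 members in the upper quartile include 0 of either. Over all genes the median log2 fold change of LPS against Control was -0.02 in the shortest and 0.12 in the longest genes, and that of LPS+Pilo against Control was -0.02 and 0.06. For LPS+Pilo against LPS it was 0.00 and -0.07. Calls over all tested genes were not counted by length, so the member counts above have no background to be set against. The part of length in the calls was not tested.

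With the long-minus-short deviation as a covariate, chosen after seeing the data and computed from the same libraries, more genes passed. The covariate is built from medians of deviations from the group mean, so it can hardly move the differences between groups. For Scd2 in LPS against Control the log2 fold change was -0.2392 in the main fit and -0.2365 with it. The covariate thus leaves the length trend of the fold changes uncorrected. It takes up spread within groups that was estimated from the same data, so the added calls are no independent evidence. LPS against Control then gave 7 lower and 3 higher members, where 9.13% of all genes were lower and 15.8% higher. LPS+Pilo against Control gave 13 lower members and 1 higher, where 11.6% of all genes were lower and 13.1% higher. LPS+Pilo against LPS gave 0 members, where 0.337% of all genes passed, 0.24% lower and 0.0977% higher.

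**Figure D4:**
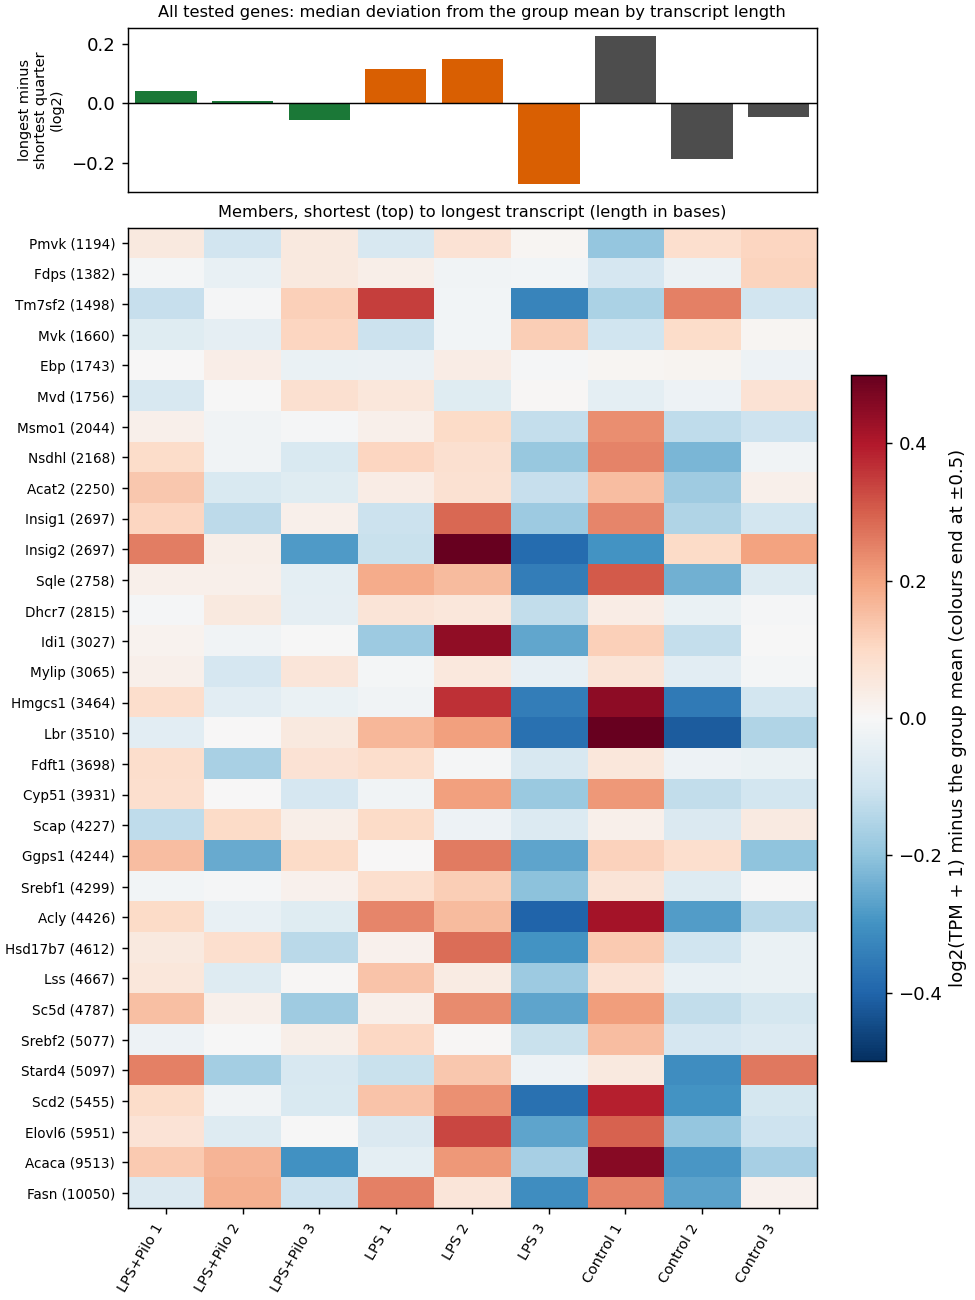
Lower panel, log2(TPM + 1) of each member minus its group mean in each library (columns), with members sorted from the shortest to the longest transcript. The bars above give the median deviation of the longest minus that of the shortest tested genes, from -0.27 in LPS replicate 3 to 0.23 in Control replicate 1, and in the LPS and Control libraries most longer members share the sign of the bar.

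Other genes of the pathway were counted in 3 lists, beside the 7.76%, 0.0444% and 10.2% of all genes that passed in LPS against Control, LPS+Pilo against LPS and LPS+Pilo against Control. Of 13 tested genes of fatty acid activation, elongation and citrate and NADPH supply (14 listed, with the desaturase gene Fads2 below the filter) 0 passed in any of the 3 comparisons. Of 8 tested genes of SREBP cleavage and sterol-sensing degradation (9 listed, Pgrmc1 below the filter), among them the protease genes Mbtps1 and Mbtps2 that cut SREBPs, 0 passed in any comparison. Of 8 tested genes of LXR signalling and sterol efflux (9 listed, Ch25h below the filter), 2 were lower with LPS, where 3.64% of all genes were, 0 passed in LPS+Pilo against LPS and 1 was lower in LPS+Pilo against Control, where 5.3% of all genes were. Lists this short hold too few genes for a count of 0 or 1 to be set apart from those shares.

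The lower genes were nuclear receptors. Rxra, the dimerization partner of LXR, had 27.1, 24.9 and 29.4 TPM in LPS+Pilo, 33.6, 30.7 and 25.1 TPM in LPS and 50.8, 42.2 and 41.7 TPM in Control. Both treated groups lay below Control, with log2 fold changes of -0.70 ± 0.13 for LPS+Pilo (limma adjusted p = 0.00864) and -0.58 ± 0.13 for LPS (adjusted p = 0.0272). Nr1h2, the LXR-beta gene, had 26.9, 27.4 and 27.0 TPM in LPS, against 37.0, 36.3 and 37.1 TPM in Control (-0.43 ± 0.08, limma adjusted p = 0.0137). In LPS+Pilo it had 31.2, 31.9 and 34.7 TPM, between the other groups (0.25 ± 0.08 relative to LPS, unadjusted p = 0.0127 and adjusted p = 0.533 in limma). The call of Rxra with LPS was lost without LPS replicate 2 (limma adjusted p = 0.0751) or 3 (0.0525), without any one Control replicate (0.0547 to 0.0663), with no filter (0.055) and with the LPS and Control libraries alone (0.0762), and that of Nr1h2 was lost without LPS replicate 2 (0.0526) or Control replicate 3 (0.0697).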

How the data were processed

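RNA sequencing of 9 BV2 libraries was analysed from the TPM matrix deposited by the authors, given to 2 decimals. The submitters' processing notes name build GRCm39 and the tools STAR 2.7.1a, DESeq2 1.24.0 and fastp 0.19.5. The program behind the TPM values, the annotation and the strand setting were not given, and depth is unknown. Of the 32 members, 13 overlap the span of another RefSeq gene, among them Mvd, Srebf1 and Insig1. Exons and strands were not compared, so whether reads of these genes are shared is unknown. Symbols came from GENCODE M21 by Ensembl identifier.

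Genes reaching 1 TPM in 3 or more libraries were fitted with limma 3.58.1 (R 4.3.3) on log2(TPM + 1), with 1 mean per group, all 9 libraries together, a variance trend and 6 residual degrees of freedom, after a test on simulated data. Tests were two-sided, with Benjamini-Hochberg adjustment over the 11260 genes. Levels are per-library TPM or mean ± SD. Alternatives changed the pseudocount, filter, scaling, libraries or covariates. Members and lists were chosen with earlier results of these data known. Values by library, or as mean ± SD, were given for called members, the SREBP control genes and the member with the largest absolute change per role. Up to 4 called genes were named per further list.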

Additional observations from a re-analysis of the deposited data

How the results depend on the processing

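Depth could not be assessed from TPM, so counting error of low genes such as Mylip is unknown. The 3 lower members of LPS against Control became 5 with quantile normalization, 0 with the 2 groups alone and 7 with the transcript length covariate. Leaving out 1 library gave 0 to 3 lower and 0 to 1 higher members, and the covariate gave 3 higher. The 7 lower members of LPS+Pilo against Control ranged from 0 to 7 and the higher ones from 0 to 1 without 1 library, and became 13 lower and 1 higher with the covariate. LPS+Pilo against LPS gave 0 members in each direction under every alternative run. Over all genes, 874 calls of LPS against Control became 1516 with quantile normalization, 486 with the 2 groups alone, 2812 with the covariate and 414 to 1020 without 1 library. The 5 of LPS+Pilo against LPS became 38 with the covariate and 0 to 6 otherwise, and the 1143 of LPS+Pilo against Control became 1726 with quantile normalization, 2774 with the covariate and 642 to 1286 without 1 library. A filter of 5 TPM left Mylip, Hsd17b7, Stard4 and Elovl6 untested. Of 1620 member values under alternatives, 69 lost a call, 25 gained one and 59 changed sign, 0 of these for a called member. Same-numbered libraries of different groups did not deviate together throughout (correlations of -0.23 to 0.17), so the numbers were not taken as pairs. A replicate block ended the calls of Pmvk with LPS (adjusted p = 0.0579) and of Mylip in LPS+Pilo against Control (0.0574), leaving 2 and 6 lower members.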
